A study of Mus musculus with 26 samples.

Results

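A set of 6 genes that marks lines by their cell of origin was followed across mouse cells of strain C57BL/6: Scin, Il18r1, Tspan12, Elavl2, Tceal8 and Slc36a4. They are 6 of 19937 genes that an Affymetrix gene-level array measured on 26 samples, and they had been picked because their signal differed strongly between lines derived from the long-term type of hematopoietic stem cell (LT-HSC) and lines derived from granulocyte-macrophage progenitors (GMP). The difference by origin in the lines is therefore given as a description with no test. Tests are kept to the sorted cells, which the choice had not used, and to comparisons within an origin. Comparisons within an origin use arrays of the lines, so their results for the 6 genes are not independent of the choice. The study asks how MLL-AF9, a leukaemia fusion of the human KMT2A and MLLT3 genes, acts in cells of either origin.

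LT-HSC-derived lines, immortalized in vitro, gave 11 arrays from 3 named lines. Of these, 3 were taken at 72 h and 2 at 48 h with doxycycline (dox), and 3 at each time without it. GMP-derived lines, also immortalized in vitro, gave 7 arrays from 4 named lines at 48 h only, with dox (n = 4) and without dox (n = 3). Sorted wild-type LT-HSC (n = 4) and sorted wild-type GMP (n = 4) came from bone marrow. Dox is the usual switch for the fusion in lines of this kind. The sources used here do not give the transgene alleles, the ages of the mice, or the event from which the hours count, and every line was immortalized. The line names B6-1, B6-2 and B6-3 occur in both origins, and F6-6 in GMP-derived lines alone. Whether a shared name means a shared mouse is not stated.

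LT-HSC sit at the top of the blood cell hierarchy, and GMP are committed precursors of neutrophils and monocytes. The 6 genes belong to 6 unrelated families. Scin encodes scinderin (adseverin), a calcium-dependent actin-severing protein of the gelsolin family. Il18r1 encodes the ligand-binding chain of the interleukin-18 (IL-18) receptor, which signals through Myd88 once Il18rap joins it. Tspan12 is a tetraspanin that assists the receptor Fzd4 in Norrin signalling in retinal vessels. Elavl2 encodes HuB, an RNA-binding protein best known from neurons. Tceal8 belongs to the X-linked TCEAL and BEX family, whose members are small and little characterised. Slc36a4 is an amino acid transporter, shown for the human protein to carry proline and tryptophan.

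Start-site windows are shown for 2 genes on each side whose profiles ran most alike over the arrays, so that their base composition can be seen beside the values. All 6 genes had a window in the RefSeq table for GRCm38.p6, which covers 250 bases before to 50 bases after each annotated start. The sequences run 5′ to 3′ on the gene's strand in lower case, with every CpG in capitals. Scin and Il18r1, higher in LT-HSC-derived lines, lie at chr12:40134179-40134478 on the minus strand and at chr1:40465302-40465601 on the plus strand, the window of Il18r1 being the most upstream of 3. Tceal8 and Slc36a4, higher in GMP-derived lines, lie at chrX:136172202-136172501 on the minus strand and at chr9:15709488-15709787 on the plus strand.
Scin: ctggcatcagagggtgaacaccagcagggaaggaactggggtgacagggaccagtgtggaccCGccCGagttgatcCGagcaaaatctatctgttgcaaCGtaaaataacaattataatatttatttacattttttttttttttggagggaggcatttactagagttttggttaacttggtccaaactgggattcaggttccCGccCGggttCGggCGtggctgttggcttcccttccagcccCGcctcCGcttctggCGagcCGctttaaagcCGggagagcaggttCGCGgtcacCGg
Il18r1: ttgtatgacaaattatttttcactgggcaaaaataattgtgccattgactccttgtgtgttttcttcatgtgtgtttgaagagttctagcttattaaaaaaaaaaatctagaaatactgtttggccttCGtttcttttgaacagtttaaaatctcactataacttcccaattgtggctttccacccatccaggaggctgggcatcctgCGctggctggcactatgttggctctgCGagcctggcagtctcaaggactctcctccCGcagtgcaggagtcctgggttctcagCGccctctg
Tceal8: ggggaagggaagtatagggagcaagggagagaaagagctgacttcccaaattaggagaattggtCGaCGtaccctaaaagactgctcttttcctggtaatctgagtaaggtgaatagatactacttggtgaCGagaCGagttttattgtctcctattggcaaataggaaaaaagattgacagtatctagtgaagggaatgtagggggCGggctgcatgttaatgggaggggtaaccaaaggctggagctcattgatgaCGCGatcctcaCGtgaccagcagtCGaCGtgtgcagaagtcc
Slc36a4: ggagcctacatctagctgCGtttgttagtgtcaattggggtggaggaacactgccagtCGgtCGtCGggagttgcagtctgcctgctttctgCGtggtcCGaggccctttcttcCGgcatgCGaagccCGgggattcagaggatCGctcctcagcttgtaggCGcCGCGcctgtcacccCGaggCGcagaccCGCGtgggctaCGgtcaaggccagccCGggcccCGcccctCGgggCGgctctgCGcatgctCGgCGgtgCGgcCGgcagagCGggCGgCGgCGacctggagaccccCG

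CpG numbers did not split the genes by the side on which they stood. The Scin window held 16 CpG, that of Tceal8 held 10 and that of Slc36a4 held 32, while the 3 windows of Il18r1 held 5, 7 and 8. The Tspan12 window held 7, and the 6 windows of Elavl2 held between 10 and 27. The median of all 32851 windows was 7 CpG, with quartiles of 3 and 20. On both strands, GATAA and TTGCNNAA were in no window of the 6 genes, and TGTGGT was in 1 window of Il18r1. Of all windows, 25.4% held GATAA, 10.8% held TTGCNNAA and 16.8% held TGTGGT.

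Array medians lay between 5.81 and 5.91 log2, and replicates of a group correlated across probe sets with r between 0.979 and 0.991. All 8 measured HSC markers were higher in sorted LT-HSC, and all 5 measured primary granule markers were lower there than in sorted GMP, the directions that the sort labels give. Each of the 6 genes had 1 probe set. All values are deposited log2 signals unless another unit is named. A group mean is called dim where it lay under the 95th percentile of that group's means over 1027 olfactory receptor genes, which was between 5.43 and 5.57 log2. A difference that involves a dim group is uncertain in size. In bulk RNA, fewer cells that express a gene and less RNA per cell cannot be told apart.

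Scin was bright in every LT-HSC-derived line and dim elsewhere. Its signal lay between 7.77 and 8.80 log2 over the 11 LT-HSC-derived arrays (median 8.42), and between 3.80 and 5.10 log2 over the 7 GMP-derived arrays (median 4.37). The 4 sorted LT-HSC arrays had 3.99, 4.05, 3.87 and 4.03 log2, and the 4 sorted GMP arrays had 4.75, 4.82, 4.69 and 4.46 log2. Group means of LT-HSC-derived lines stood 2.64 to 3.14 log2 above the dim line, while GMP-derived lines and both sorted populations were dim. The bright level of Scin was thus present in the LT-HSC-derived lines alone among the groups measured.

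Il18r1 ran the same way. It lay between 7.04 and 9.04 log2 in LT-HSC-derived lines (median 7.77), and between 4.19 and 5.77 log2 in GMP-derived lines (median 4.45). Sorted LT-HSC had 5.34, 5.45, 5.74 and 5.44 log2 and sorted GMP had 5.07, 4.87, 4.52 and 4.68 log2. The lowest LT-HSC-derived array exceeded the highest array of any other group, and the means of GMP-derived and sorted groups were dim, in GMP-derived lines without dox by 0.01 log2.

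Tceal8 and Slc36a4 were low in LT-HSC-derived lines and measured above the dim line in GMP-derived lines and in both sorted populations. Tceal8 lay between 4.25 and 7.27 log2 in LT-HSC-derived lines (median 4.96), and between 8.84 and 9.18 log2 in GMP-derived lines (median 9.04). Sorted LT-HSC had 9.24, 9.14, 9.30 and 8.99 log2 of Tceal8, and sorted GMP had 9.25, 9.19, 9.27 and 9.35 log2. The LT-HSC-derived group means of Tceal8 were dim except with dox at 48 h, which lay 0.37 log2 above the line. LT-HSC-derived group means were 5.04 to 5.81 log2, against 8.89 and 9.10 log2 in GMP-derived groups and 9.17 and 9.26 log2 in the sorted populations.

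Slc36a4 lay between 4.62 and 5.52 log2 in LT-HSC-derived lines (median 4.86), and between 6.67 and 8.02 log2 in GMP-derived lines (median 6.98). Sorted LT-HSC had 6.40, 6.21, 6.64 and 6.29 log2, and sorted GMP had 6.74, 6.99, 6.63 and 7.04 log2. All 4 LT-HSC-derived group means were dim, and no other group mean was.

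Elavl2 was bright in GMP-derived lines and dim everywhere else. It lay between 4.36 and 5.42 log2 in LT-HSC-derived lines (median 4.60), and between 6.52 and 9.30 log2 in GMP-derived lines (median 7.46). Sorted arrays of both kinds lay between 4.53 and 4.87 log2, so neither normal population carried the signal seen in GMP-derived lines.

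Tspan12 was above the dim line in 1 group, GMP-derived lines with dox. LT-HSC-derived lines lay between 3.87 and 5.00 log2 (median 4.24), and GMP-derived lines lay between 4.82 and 7.97 log2 (median 6.58). Sorted LT-HSC had 4.56, 4.49, 4.37 and 4.27 log2, and sorted GMP had 4.11, 3.97, 3.67 and 3.86 log2. Over all arrays, Tspan12 was the 1 gene of the 6 whose origins overlapped, against 5 whose arrays did not. Across all genes, 1.66% had no overlap between LT-HSC-derived and GMP-derived arrays, a contrast for which the 6 genes had been chosen.

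**Figure D1:**
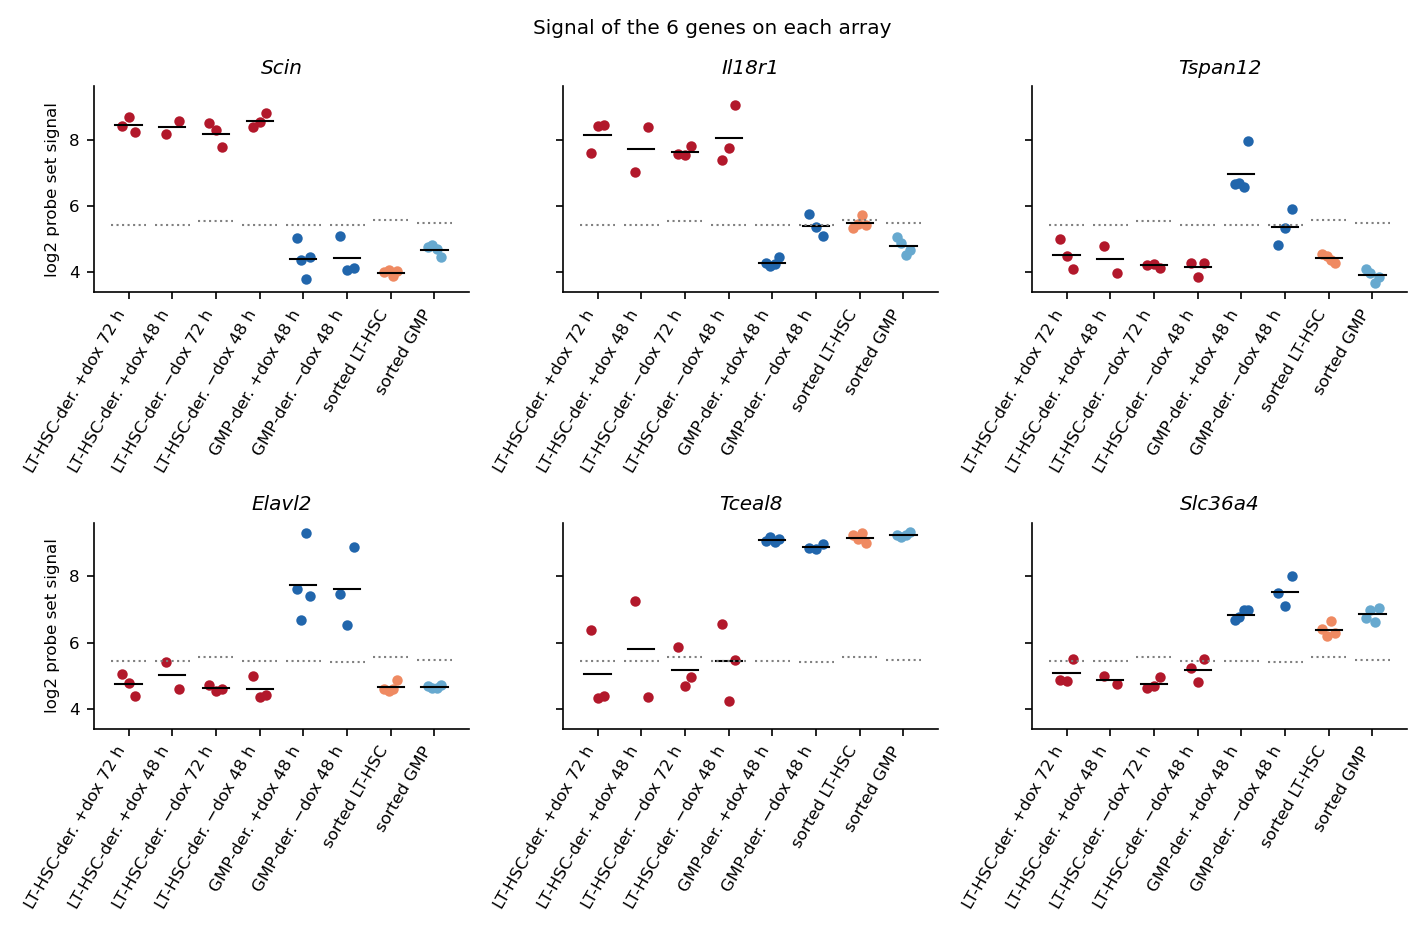
Log2 probe set signal (y axis) of the 6 genes on each of 26 arrays, by group (x axis), with bars at group means and dotted marks at each group's dim line. The lowest LT-HSC-derived arrays of Scin (7.77) and Il18r1 (7.04) lie above all arrays of the other groups, the lowest GMP-derived array of Elavl2 (6.52) lies above all others, and the highest LT-HSC-derived array of Tceal8 (7.27) lies below all others.

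At 48 h with dox, LT-HSC-derived minus GMP-derived means differed by 3.97 ± 0.26 (SE) log2 for Scin, 3.43 ± 0.34 for Il18r1, -1.97 ± 0.21 for Slc36a4, -2.59 ± 0.31 for Tspan12, -2.74 ± 0.49 for Elavl2 and -3.29 ± 0.59 for Tceal8. Without dox the differences were 4.14 ± 0.25 for Scin, 2.66 ± 0.32 for Il18r1, -2.36 ± 0.20 for Slc36a4, -1.21 ± 0.29 for Tspan12, -3.03 ± 0.46 for Elavl2 and -3.46 ± 0.55 for Tceal8. All 6 genes passed limma's threshold in both contrasts, beside 2.11% of all genes with dox and 6.8% without dox, and nothing is read from that since the genes were chosen on it. Ranked by the smaller of both differences, Scin was number 2 of the genes higher in LT-HSC-derived lines and Il18r1 number 10. Among genes lower there, Tceal8 was number 1, Elavl2 number 2, Slc36a4 number 5 and Tspan12 number 19.

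The choice rule names no threshold, and genes of like size were left outside it. I730030J21Rik, at 5.78 log2 with dox and 6.06 without, ranked above Scin, and Cpa3, a mast cell carboxypeptidase, stood just below Scin at 3.21 and 3.82. On the low side Xlr had -2.66 with dox and -2.95 without, and Ifi209 had -2.48 and -2.90, both between Elavl2 and Slc36a4.

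The origins also differed within the line names that both share. For B6-2, LT-HSC-derived minus GMP-derived Scin was 3.15 log2 with dox and 3.30 without, and for B6-3 it was 4.21 and 4.46. Tceal8 differed by -1.79 with dox and -2.27 without for B6-2, and by -4.83 and -4.59 for B6-3. Elavl2 lay between -2.45 and -2.09 for both names. Tspan12 for B6-2 differed by -1.86 with dox and by -0.54 without.

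Sorted LT-HSC and sorted GMP were then compared to see whether the 6 genes differ between the normal cells of origin, which the choice had not used (n = 4 each). Of the 6 genes, 2 passed limma's test at an adjusted p under 0.05, both lower in LT-HSC, beside 32.1% of all genes in either direction. Scin averaged 3.99 ± 0.08 log2 in sorted LT-HSC and 4.68 ± 0.16 log2 in sorted GMP (SD, n = 4 each), a difference of -0.69 ± 0.22 (SE, limma adjusted p = 0.0146). Both means were dim. Slc36a4 averaged 6.38 ± 0.19 log2 in sorted LT-HSC and 6.85 ± 0.20 log2 in sorted GMP (SD, n = 4 each), a difference of -0.47 ± 0.18 (SE, limma adjusted p = 0.0423), with 1 sorted LT-HSC array above 1 sorted GMP array. That call was lost in 6 of 14 alternatives, among them the fits without sorted LT-HSC replicates 1, 2 or 4 or sorted GMP replicates 2 or 4 (limma adjusted p between 0.0703 and 0.122).

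The other 4 did not pass. Il18r1 differed by 0.71 ± 0.28 log2 (95% interval 0.14 to 1.28, limma adjusted p = 0.0518) and Tspan12 by 0.52 ± 0.25 (-0.01 to 1.05, limma adjusted p = 0.138), and for both genes the means of both populations were dim. Without sorted GMP replicate 1, the Il18r1 difference was 0.81 log2 (limma adjusted p = 0.0453). With only the groups compared, Il18r1 and Tspan12 passed, higher in LT-HSC (limma adjusted p = 0.0006 and 0.0014). Both also passed with the replicate block (limma adjusted p = 0.0141 and 0.0196), so the count of genes called depends on the fit. Tceal8, bright in both populations, differed by -0.09 ± 0.48 (-1.08 to 0.90), and Elavl2, dim in both, by -0.02 ± 0.40 (-0.85 to 0.81). The fit shares 1 spread over all groups, and the arrays of Tceal8 had an SD of 0.13 log2 in sorted LT-HSC and 0.07 log2 in sorted GMP.

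Arrays of the sorted populations did not overlap for Scin, Il18r1 and Tspan12, 3 of the 6 genes, beside 30.7% of all genes. The directions were not all those of the lines: Scin was lower in sorted LT-HSC, at -0.69 log2, and had 3.97 and 4.14 log2 in lines, while Tspan12, not past the test in sorted cells, had 0.52 log2 there and -2.59 and -1.21 log2 in lines. Slc36a4 was lower on the LT-HSC side in both, at -0.47 log2 in sorted cells and at -1.97 and -2.36 log2 in lines. The median of the 6 differences was -0.06 log2 in sorted cells, and the median over all genes was 0.01 log2.

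**Figure D2:**
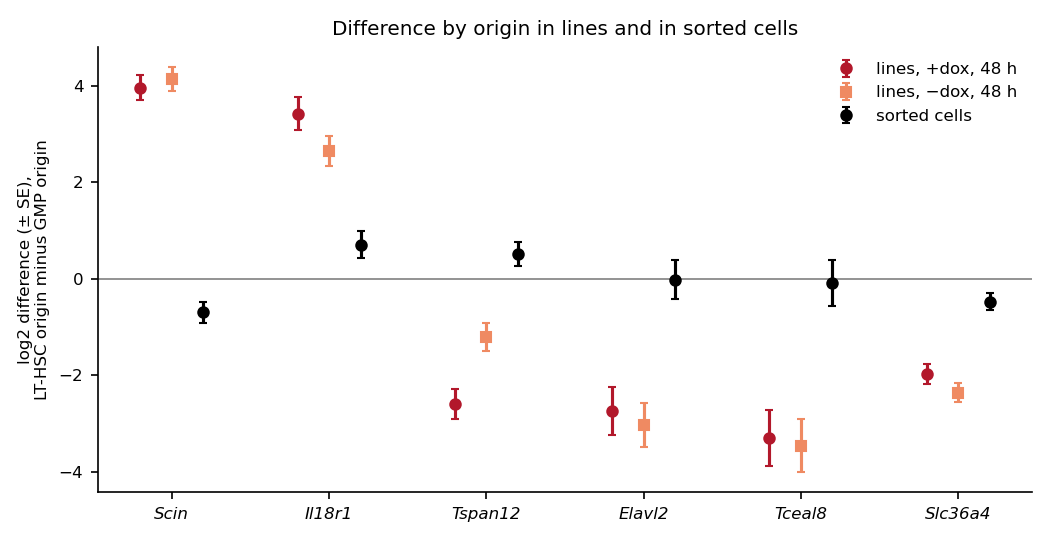
Log2 difference, LT-HSC origin minus GMP origin (y axis, bars ± SE), of the 6 genes (x axis) in lines with dox at 48 h, lines without dox at 48 h, and sorted cells. The lines lie between -3.46 and 4.14 log2, and the sorted cells between -0.69 and 0.71 log2.

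Dox was compared with no dox within GMP-derived lines at 48 h (n = 4 and 3). Tspan12 rose, and Il18r1 and Slc36a4 fell, so 3 of the 6 genes passed the test, beside 10.9% of all genes. The GMP-derived arrays were among those on which the genes were chosen, so this count and its p-values are not independent of the choice. Tspan12 had 6.66, 6.69, 6.58 and 7.97 log2 with dox in lines B6-2, B6-3, F6-6 and B6-1, and 4.82, 5.34 and 5.92 log2 without dox in lines B6-2, B6-3 and F6-6. All arrays with dox were above all arrays without. The difference was 1.62 ± 0.28 log2 (SE, limma adjusted p = 0.000279), it was 1.29 log2 without the B6-1 array, and it passed in all 13 alternatives. Within lines it was 1.84 in B6-2, 1.35 in B6-3 and 0.66 in F6-6. The mean without dox, 5.36 log2, was dim.

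Il18r1 had 4.27, 4.19, 4.24 and 4.45 log2 with dox in the same order of lines, and 5.77, 5.38 and 5.09 log2 without dox. The groups did not overlap, and Il18r1 fell by 1.13 log2 ± 0.30 (SE, limma adjusted p = 0.0132), although both means were dim. The call was lost without the no-dox array of B6-2 (limma adjusted p = 0.0879) or of B6-3 (limma adjusted p = 0.0501). Slc36a4 had 6.67, 6.76, 6.98 and 6.97 log2 with dox, and 7.49, 7.12 and 8.02 log2 without. It fell by 0.70 log2 ± 0.19 (SE, limma adjusted p = 0.0163), with no overlap and both means above the dim line. The call was lost without the dox array of B6-2 (limma adjusted p = 0.0519) or the no-dox array of F6-6, where the difference was -0.46 (limma adjusted p = 0.154).

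Scin, Elavl2 and Tceal8 did not pass in GMP-derived lines. Their differences with dox were -0.02 log2 for Scin (95% interval -0.50 to 0.46), 0.13 log2 for Elavl2 (-0.76 to 1.03) and 0.21 log2 for Tceal8 (-0.85 to 1.28). Elavl2 was higher with dox in each of the 3 lines with both cultures, by 0.16 log2 in B6-2, 0.17 log2 in B6-3 and 0.42 log2 in F6-6. With the line as a block its difference was 0.25 ± 0.12 log2 (SE, limma adjusted p = 0.239), and without the block the SE was 0.43. Tceal8 arrays with dox, 9.04 to 9.18 log2, were all above those without, 8.84 to 8.97 log2. The SE of its difference was 0.52 in the main fit, which shares 1 spread over all groups. With only the groups compared it was 0.07 (limma adjusted p = 0.105). With Tceal8, 4 of the 6 genes had no overlap between the groups, beside 19.9% of all genes. Markers of late neutrophils moved in the same lines: 6 of 7 fell, and the mean of the list lay between 8.28 and 8.59 log2 with dox and between 11.1 and 11.2 log2 without, none of its genes being dim in either group. Of 6 markers of monocytes and macrophages 3 fell, and 10.9% of all genes were called there in either direction. In LT-HSC-derived lines at 72 h, 3 of 7 late neutrophil markers and 3 of 6 monocyte and macrophage markers fell with dox. That stood beside 7.15% of all genes called, and 0 of the 6 genes passed there. At 48 h in those lines 1 marker of each list fell, beside 0.441% of all genes called. The part of both lists in the changes of Tspan12, Il18r1 and Slc36a4 was not tested.

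In LT-HSC-derived lines dox moved none of the 6 past the threshold. At 72 h (n = 3 each) 0 of 6 passed limma's test and 0 had an unadjusted p under 0.05, beside 7.15% of all genes called. At 48 h (n = 2 with dox and 3 without) it was again 0 of 6, and 0 at an unadjusted p under 0.05, beside 0.441% of all genes called, which is 88 genes, or 295 with the line as a block. Il18r1 differed by 0.51 log2 at 72 h (95% interval -0.14 to 1.17) and by -0.35 log2 at 48 h (-1.09 to 0.38). Tspan12 differed by 0.33 log2 at 72 h (-0.28 to 0.94) and by 0.24 log2 at 48 h (-0.44 to 0.92). Slc36a4 differed by 0.32 log2 at 72 h (-0.09 to 0.74) and by -0.31 log2 at 48 h (-0.78 to 0.16). Scin differed by 0.26 log2 at 72 h (-0.25 to 0.78) and by -0.19 log2 at 48 h (-0.77 to 0.38). Elavl2 differed by 0.13 log2 at 72 h (-0.82 to 1.09) and by 0.42 log2 at 48 h (-0.65 to 1.49), and Tceal8 by -0.14 log2 at 72 h (-1.28 to 1.01) and by 0.38 log2 at 48 h (-0.90 to 1.65). The 48 h groups hold different lines, since B6-1 has no array with dox at 48 h.

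The 48 h values of Il18r1 and Tceal8 in LT-HSC-derived lines turned with single arrays. Within lines Il18r1 differed with dox by -0.35 log2 in B6-2 and by 0.62 log2 in B6-3. Its difference of -0.35 log2 became 0.13 log2 without the no-dox B6-1 array and -0.11 log2 with the line as a block, and leaving out single arrays gave -1.02 to 0.32 log2. Tceal8 had 7.27 log2 in B6-2 and 4.34 log2 in B6-3 with dox, so its difference of 0.38 log2 became -1.09 log2 without the B6-2 array with dox and 1.84 log2 without the B6-3 array with dox. Within lines Tceal8 differed by 0.70 log2 in B6-2 and 0.10 log2 in B6-3.

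The 48 h dox effect in LT-HSC-derived lines minus that in GMP-derived lines was -1.38 ± 0.43 (SE) log2 for Tspan12. It was 0.77 ± 0.46 for Il18r1 and 0.39 ± 0.29 for Slc36a4. These values carry no test, because they are differences of the contrasts on which the genes were chosen.

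Time within LT-HSC-derived lines moved none of the 6 past the threshold either. Comparing 72 h with 48 h with dox, 0 of 6 passed limma's test and 0 had an unadjusted p under 0.05, beside 0% of all genes called, with 450 genes at an unadjusted p under 0.05, and 2 genes called once the line was a block. In the cultures without dox, 0 of 6 passed and 1 had an unadjusted p under 0.05, beside 0.181% of all genes called, which is 36 genes, or 230 with the line as a block. The 1 gene was Slc36a4, at -0.44 log2 (95% interval -0.86 to -0.02, limma adjusted p = 0.366), dim at both times.

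**Figure D3:**
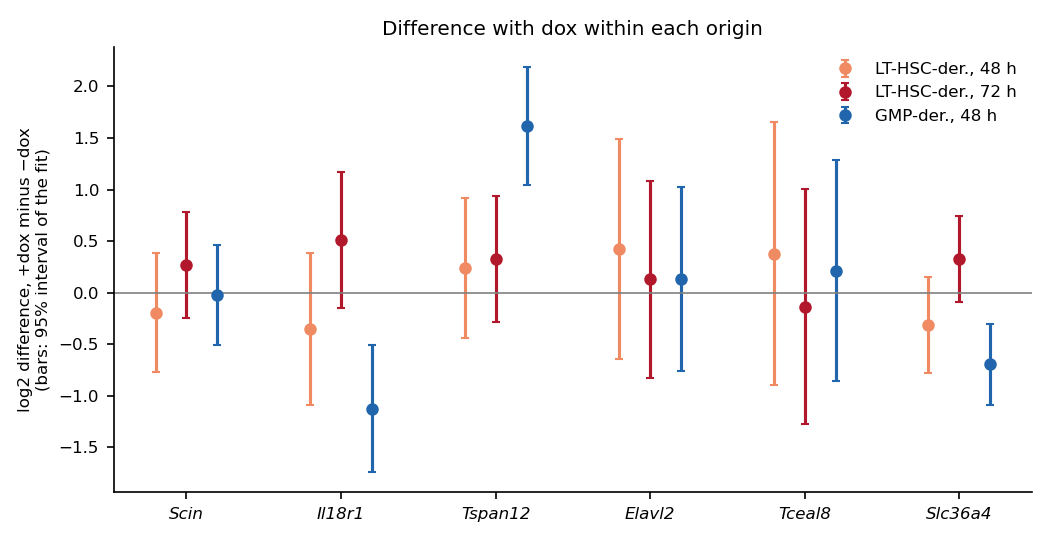
Log2 difference with dox minus without dox (y axis, bars are 95% intervals of the fit) of the 6 genes (x axis) in LT-HSC-derived lines at 48 h and 72 h and in GMP-derived lines at 48 h. Intervals exclude 0 for Il18r1, Tspan12 and Slc36a4 in GMP-derived lines, at -1.13, 1.62 and -0.70 log2.

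Lines of 1 origin also differed among themselves. Arrays of the lines had served to choose the genes, so the counts of the 6 genes given here are not independent of that choice. In LT-HSC-derived lines 3 of the 6 genes passed limma's F test across the 3 named lines, beside 2.59% of all genes. Tceal8 had the widest range of line means of the 6, 2.12 log2 (adjusted p = 1.26e-06), beside a median range of 0.12 log2 over all genes. In line B6-2 it had 6.39 and 7.27 log2 with dox at 72 h and 48 h, and 5.87 and 6.57 log2 without dox at 72 h and 48 h. In B6-3 its 4 arrays lay between 4.25 and 4.70 log2, and in B6-1 its 3 arrays lay between 4.39 and 5.47 log2. Every B6-2 array was thus above the dim line and above every array of the other 2 lines. Without B6-2 the range of Tceal8 was 0.51 log2 and did not pass (F test adjusted p = 0.133).

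Il18r1 also varied among LT-HSC-derived lines, with line means of 8.44 log2 in B6-1, 8.02 log2 in B6-3 and 7.40 log2 in B6-2 (range 1.04 after adjusting for group, F test adjusted p = 0.0239). Elavl2 passed with a range of 0.51 log2 (F test adjusted p = 0.0104), but all its group means there were dim. Both calls were lost when B6-1 was left out (F test adjusted p = 0.203 for Il18r1 and 0.0585 for Elavl2) and when B6-2 was (0.262 and 0.900). Slc36a4 did not pass (range 0.57 log2, F test adjusted p = 0.0530). Scin, the most even of the 6, had line means of 8.27, 8.38 and 8.53 log2 in B6-1, B6-2 and B6-3 (F test adjusted p = 0.703).

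In GMP-derived lines 3 of the 6 genes passed across the 4 named lines, beside 1.69% of all genes. Elavl2 had line means of 9.09 log2 in F6-6, 7.54 in B6-2, 7.40 in B6-1 and 6.61 in B6-3, a range of 2.48 log2 (F test adjusted p = 4.25e-08) beside a median range of 0.21 log2 over all genes. With dox and without dox F6-6 had 9.30 and 8.88 log2, so the line stood apart in both cultures. Tspan12 passed (range 1.59 log2, F test adjusted p = 0.0255), but the call rested on the single array of B6-1, a line measured with dox alone. Without it the range of Tspan12 was 0.51 log2 (F test adjusted p = 0.773).

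Scin passed too (range 1.10 log2, F test adjusted p = 0.0111), with B6-2 highest at 5.07 log2, but it was dim in both groups. The Scin call was lost without B6-2 (range 0.50 log2, F test adjusted p = 0.714) or F6-6 (0.85 log2, F test adjusted p = 0.164). Mast cell and basophil markers were highest in B6-2 as well, with list means of 6.21 and 6.56 log2 there and between 5.37 and 5.42 log2 in the other 3 GMP-derived lines. Among LT-HSC-derived lines Scin did not pass across lines (F test adjusted p = 0.703), so its order there is not read. There B6-1 had the highest list means, between 7.81 and 8.17 log2. Its Scin arrays lay between 7.77 and 8.80 log2 (mean 8.27), the lowest and the highest values of all LT-HSC-derived arrays. Sorted GMP had list means between 6.41 and 6.87 log2, with Scin dim at 4.68 log2. The part of these markers in the Scin level was not tested. Elavl2 passed whichever of the 4 lines was left out, although without F6-6 its range was 0.93 log2 (F test adjusted p = 0.0123). Tceal8, which varied most in LT-HSC-derived lines, had line means between 8.95 and 9.14 log2 here (range 0.08 log2 after adjusting for group, F test adjusted p = 1.000).

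**Figure D4:**
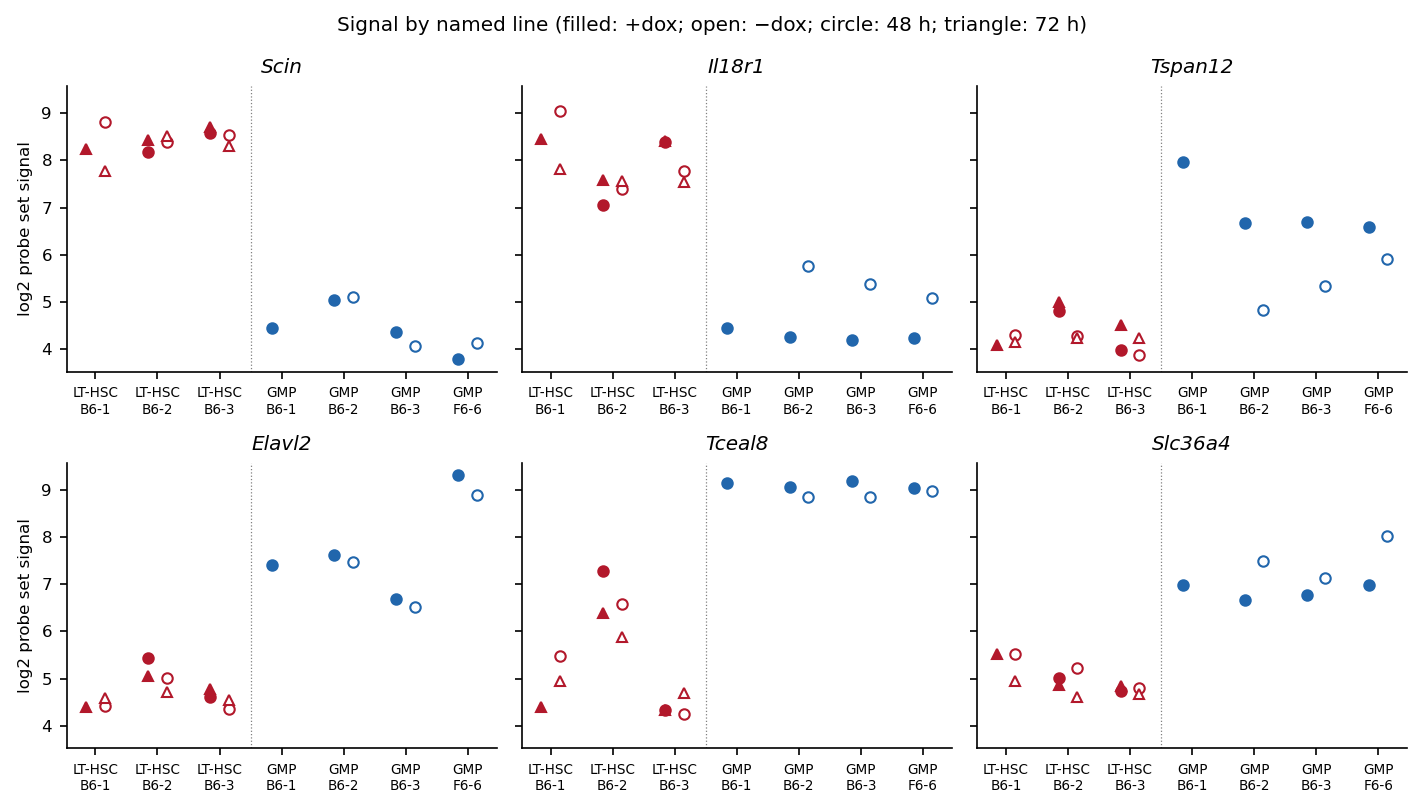
Log2 signal (y axis) of the 6 genes by origin and named line (x axis), with dox filled, without dox open, 48 h as circles and 72 h as triangles. Tceal8 is highest in B6-2 among LT-HSC-derived lines (5.87 to 7.27 log2), and Elavl2 is highest in F6-6 among GMP-derived lines (8.88 to 9.30 log2).

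Markers of mast cells and basophils moved with origin in the lines. With dox 1 of 10 was higher in LT-HSC-derived lines, Cpa3 at 3.21 ± 0.78 (SE) log2, beside 2.11% of all genes called. An unadjusted p under 0.05 was found for 6 of the 10 with dox. Without dox 7 of 10 were higher, beside 6.8% of all genes called, with Cpa3 at 3.82 ± 0.74 and the basophil protease gene Mcpt8 at 2.92 ± 0.53. The median over the list was 0.95 log2 with dox and 1.80 log2 without dox, against -0.01 and 0.01 log2 over all genes. The mean of the list lay between 6.73 and 8.17 log2 on LT-HSC-derived arrays and between 5.37 and 6.56 log2 on GMP-derived arrays, with 2 or 3 of its 10 genes dim in LT-HSC-derived groups and 5 in GMP-derived groups. Among LT-HSC-derived lines B6-1 was highest, between 7.81 and 8.17 log2, while B6-2 lay between 6.73 and 7.12 and B6-3 between 6.80 and 6.97. Among GMP-derived lines B6-2 stood above the others, as given for Scin. In sorted LT-HSC 6 of 10 were lower and 1 was higher, beside 32.1% of all genes called in either direction.

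Other marker lists also differed by origin in part, beside 2.11% of all genes called with dox and 6.80% without. With dox 2 of 8 HSC markers and 1 of 4 erythroid markers were higher in LT-HSC-derived lines, and none of any list was lower. Without dox HSC markers had 2 higher and 1 lower of 8, megakaryocyte markers 2 higher of 5, T and NK cell markers 1 higher of 7, and stromal and endothelial markers 1 higher and 1 lower of 6. Primary granule markers had 1 lower of 5 and late neutrophil markers 1 lower of 7, while none of the 6 monocyte and macrophage or 5 B cell markers was called (1 and 0 at an unadjusted p under 0.05). HSC markers with dox at 48 h had list means between 5.90 and 6.03 log2 in LT-HSC-derived lines, 4 of 8 being dim. In GMP-derived lines with dox at 48 h the list means lay between 5.12 and 5.60 log2, 6 of 8 being dim. The median difference over the HSC list with dox was -0.01 log2, and over all genes it was -0.01 log2. The higher list mean was thus not a shift of the HSC list as a whole. The part of these marker lists in the levels of the 6 genes was not tested.

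Relatives of the 6 genes were counted in lists chosen from family and pathway membership. Of all genes, limma called 32.1% in sorted cells, and by origin in lines 2.11% with dox and 6.8% without. For dox, it called 10.9% in GMP-derived lines, and in LT-HSC-derived lines 7.15% at 72 h and 0.441% at 48 h. The counts of relatives stand beside these shares. Beside Scin, 7 gelsolin family genes were measured: none was called by origin in lines with dox (1 at an unadjusted p under 0.05), and 1 was lower in LT-HSC-derived lines without dox, Flii, at -0.30 ± 0.08 (SE) log2. In GMP-derived lines 4 of the 7 fell with dox, the largest change being in Capg, a capping protein gene, which fell by 1.23 log2 ± 0.28. Scin itself did not pass there.

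Of 14 genes of the IL-18 and IL-1 receptor pathway, 11 were measured. By origin in the lines with dox 1 was higher and none lower, and without dox none was called (5 at an unadjusted p under 0.05). The 1 was Il18rap, the signalling partner of Il18r1, at 8.72 log2 in LT-HSC-derived and 7.13 log2 in GMP-derived lines with dox, a difference of 1.59 ± 0.15 (SE, limma adjusted p = 5.71e-07). Without dox Il18rap had 9.06 log2 in LT-HSC-derived and 8.72 log2 in GMP-derived lines (difference 0.35, limma adjusted p = 0.179). In GMP-derived lines Il18rap fell with dox by 1.59 log2 ± 0.13, and Il1r2, the IL-1 decoy receptor gene, by 3.42 log2 ± 0.27, as did the adaptor gene Myd88, by 0.76 log2 ± 0.15. With dox in LT-HSC-derived lines 4 of the 11 fell at 72 h and 1 at 48 h. In sorted LT-HSC 2 of the 11 were higher and 1 lower, beside 32.1% of all genes called. Il18 itself was 1.78 ± 0.31 higher, at 5.78 log2 and dim in GMP. Il18bp, which encodes a soluble binder of IL-18, was 0.48 ± 0.06 higher, and Il1rl2, the IL-36 receptor gene, differed by -1.15 ± 0.32.

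Of the 25 tetraspanins measured beside Tspan12, 11 were higher and 5 lower in sorted LT-HSC, beside 32.1% of all genes called. Tspan13 was higher at 2.68 ± 0.17 (SE) log2 and the leukocyte tetraspanin Cd53 was lower at -3.62 ± 0.14. In the lines with dox 2 were higher and none lower, Tspan13 at 1.71 ± 0.21 and Cd9 at 0.96 ± 0.18, and without dox 3 were higher and 2 lower. None of the 4 other genes of the Norrin receptor list was called by origin in lines (0 with dox and 1 without at an unadjusted p under 0.05), and Fzd4, the receptor that Tspan12 assists, was dim in lines of both origins at 48 h. In sorted LT-HSC 2 of the 4 were higher, Fzd4 at 1.08 ± 0.20 and Lrp6 at 0.45 ± 0.07.

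Of the 3 other ELAV genes 0 were called by limma in sorted cells or by origin in lines, and 0 had an unadjusted p under 0.05, with differences between -0.09 and 0.16 log2. Elavl1, the widely expressed member, had means between 9.19 and 9.41 log2 in the sorted groups and the lines at 48 h. Elavl3 and Elavl4 were dim in all of these. Of 11 TCEAL and BEX genes 9 were measured, and 6 were higher and 1 lower in sorted LT-HSC, with Bex1 at 4.63 ± 0.28 (SE) log2, Tceal1 at 2.47 ± 0.14 and Bex6 at -2.75 ± 0.16. By origin in the lines Bex6 was the 1 gene called, higher in LT-HSC-derived lines by 0.79 ± 0.20 with dox and 1.59 ± 0.18 without. Of 3 SLC36 genes beside Slc36a4, none was called by origin in lines (0 with dox and 1 without at an unadjusted p under 0.05). In sorted LT-HSC 2 of the 3 were lower, among them Slc36a1, a lysosomal amino acid transporter gene, at -1.56 ± 0.17.

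**Figure D5:**
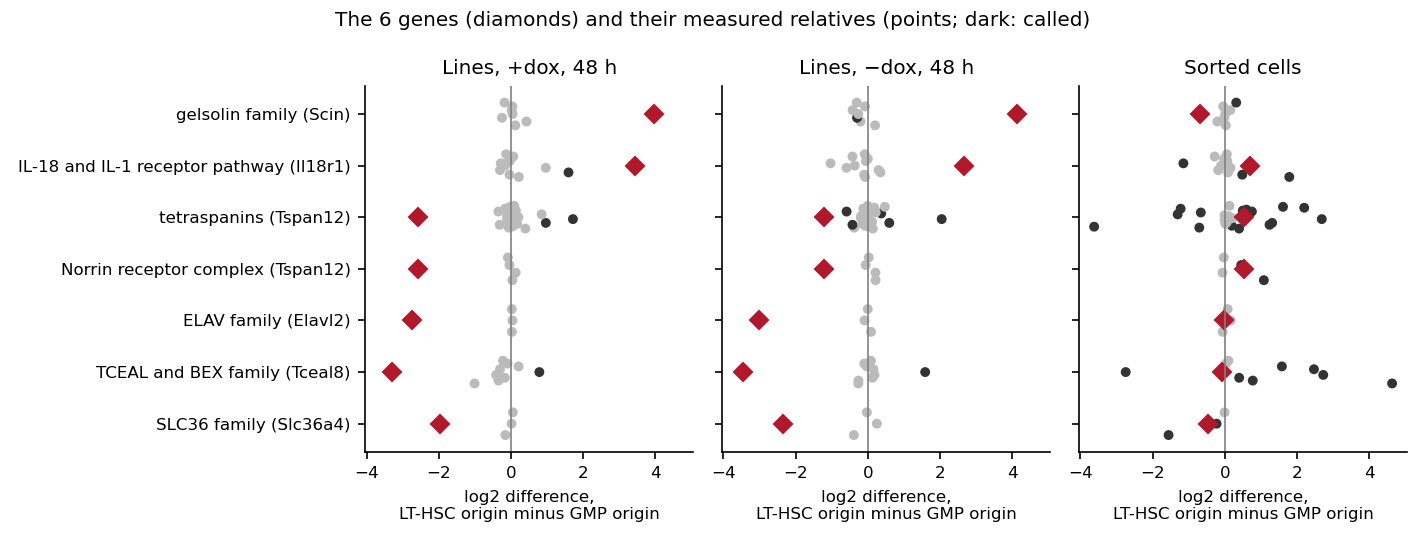
Log2 difference, LT-HSC origin minus GMP origin (x axis), of the 6 genes (diamonds) and their measured relatives (points, dark where called by limma), by family (y axis), in lines with dox at 48 h, lines without dox at 48 h and sorted cells. In lines with dox the relatives reach at most 1.71 log2 (Tspan13), and without dox 2.04 log2 (Tspan13, in the row of Tspan12 at -1.21), while in sorted cells they reach -3.62 for Cd53 and 4.63 log2 for Bex1.

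Nearest measured neighbours in RefSeq gene order, 2 on each side and 24 in all, were counted beside all genes. By origin in lines with dox 1 of the 24 was higher and none lower, beside 2.11% of all genes called. It was Il18rap, next to Il18r1. Without dox 1 was higher and none lower, beside 6.8% of all genes called. It was Ifrd1 near Scin, at 0.37 ± 0.10 (SE) log2. In sorted LT-HSC 4 were higher and 1 lower, beside 32.1% of all genes called. The 3 X-linked neighbours Bex4, Tceal5 and Bex1 of Tceal8 were among the 4, at 2.72, 1.58 and 4.63 log2, although Bex4 was dim in both populations and Tceal8 itself differed by -0.09 log2.

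Genes whose profile over the 26 arrays was most like that of each gene were found by Pearson's r, as a description, since the arrays share groups and lines. Scin was most like Cdh17 (r = 0.951), Sema4d and Akr1c18 (r = 0.934 each). Il18r1 was most like Havcr2, an inhibitory receptor gene (r = 0.978), Perp (r = 0.913) and Cdh17 (r = 0.903). Tceal8 was most like Gspt2 (r = 0.939), and Slc36a4 most like Zcchc3 (r = 0.847), which was also number 2 for Tceal8 (r = 0.913). Elavl2 was most like Adam3 (r = 0.944), and Tspan12 most like Ppp1r14c (r = 0.902), followed by Adam3 (r = 0.880). Among the 6 themselves r was 0.92 between Scin and Il18r1, 0.87 between Tceal8 and Slc36a4 and 0.82 between Tspan12 and Elavl2, while Scin and Tceal8 had r = -0.93. The genes had been chosen for their difference by origin, and the lines are among the arrays used for r. High r within a side and negative r across sides therefore follow in part from the choice, and nothing is read from them.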

How the data were processed

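Total RNA was amplified to cDNA, labelled with biotin and hybridised to Affymetrix gene arrays, per the labels' protocols. The authors deposited log2 probe set signals for 34760 probe sets. The submitters' processing notes name limma and R 3.1.1. How background correction, summarisation and normalization were done, and on which genome build, the sources used here do not say. From GEO's platform annotation 21640 probe sets carry 1 symbol, 1321 several and 11799 none. For a gene with several such probe sets, the one brightest on average stood for it, which left 19937 genes.

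With limma 3.58.1 (lmFit, contrasts.fit, eBayes; R 4.3.3), a mean for each of 8 groups was estimated from 26 arrays with no filter. Tests were 2-sided, and genes were called under 0.05 after Benjamini-Hochberg adjustment of p-values over 19937 genes. Line F tests used group means plus line terms within each origin. There were 6 tested comparisons of groups. The procedure was tested on simulated data. The labels call replicates biological, but nothing says that sorted replicates came from separate animals, so p-values measure the spread between these samples. In the main fit that spread is shared over all 8 groups, so tests of sorted cells also carry the spread between cultured arrays. For Il18r1 in sorted cells the SE was 0.28 in the main fit and 0.12 with only the groups compared. The number of arrays limits the precision.

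Replicate numbers follow line names in the cultures, so the same number is the same line. Same-line deviations correlated with r between 0.291 and 0.401 in GMP-derived lines, and between -0.057 and 0.466 in LT-HSC-derived lines. The 6 genes, the 7 lists of relatives and the 10 marker lists were chosen with earlier results of these data known. Named genes were the 6, up to 4 called relatives per list, 2 neighbours per side, the 3 most alike genes, predicted genes and receptor segments left out, and markers beside a result. Genes ranked just outside the 6 were named after their values were seen. RefSeq promoter windows (GRCm38.p6) were used for sequence only, since the array's build is not named. Alternatives were quantile normalization, a filter on dim genes (11945 genes left), a replicate block, array weights, every probe set as a row, only the groups compared, leaving out each replicate, and, chosen after seeing the data, leaving out each named line in the line F tests.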

Additional observations from a re-analysis of the deposited data

Results flagged for a closer look

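Tspan12 in GMP-derived lines with dox at 48 h had 1 array far from the others: line B6-1 had 7.97 log2, and the nearest of the other 3 lines had 6.69 log2. The gap was 0.92 of the group's range, past Dixon's 95% critical value of 0.829 for 4 samples. Chance gives such a gap in about 1 of 20 groups, and 18 groups were looked at. B6-1 has no array without dox among GMP-derived lines, so its own dox difference could not be computed. Scin differed in opposite directions in sorted cells and in lines: sorted LT-HSC minus sorted GMP was -0.69 log2, with both populations dim, and the lines had 3.97 with dox and 4.14 without. That difference was not tested, since the contrast in the lines chose the gene.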

How the results depend on the processing

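Of 504 values of the 6 genes under alternatives, 479 kept their side of the threshold, 18 lost it and 7 gained it. No called value changed sign, while 32 values with no call did: 10 in dox comparisons of LT-HSC-derived lines, 4 in GMP-derived lines, 15 in comparisons of times and 3 in sorted cells. In sorted cells Slc36a4, at -0.47, had an adjusted p of 0.0683 with every probe set as a row, and leaving out replicates gave values between -0.55 and -0.41. Il18r1, at 0.71, passed with the dim filter (adjusted p = 0.0400), with only the groups compared (0.0006) and with the replicate block (0.0141), and leaving out replicates gave 0.62 to 0.81. Tspan12, at 0.52, passed with only the groups compared (0.0014) and with the replicate block (0.0196). Same-numbered sorted samples correlated with r between 0.020 and 0.060, and samples of different numbers with r between -0.069 and 0.082. These values cannot show whether the numbers pair the sorted samples, since the labels do not say what a number stands for there. In the cultures the replicate block changed no call of the 6 genes. In GMP-derived lines, leaving out replicates gave dox differences of -1.29 to -0.95 for Il18r1 and -0.91 to -0.46 for Slc36a4. Slc36a4 among LT-HSC-derived lines, range 0.57, passed with the dim filter (adjusted p = 0.0450). Leaving out each named line in turn, chosen after seeing the data, gave ranges of 0.53 to 0.92 for Il18r1, 0.0922 to 0.48 for Elavl2 and 0.51 to 2.12 for Tceal8 in LT-HSC-derived lines, and 0.51 to 1.60 for Tspan12 and 0.50 to 1.10 for Scin in GMP-derived lines. Genes called across lines were 34 to 384 (517 with all lines) and 53 to 356 (337 with all lines). Counts of all genes moved more. The dox count in LT-HSC-derived lines at 48 h (88) became 295 with the replicate block, 145 with array weights, 54 with only the groups compared and 10 to 87 without single replicates. At 72 h (1425) it became 2241 with array weights, 647 with only the groups compared and 859 to 1329 without single replicates. In GMP-derived lines (2179) leaving out replicates gave 1224 to 2115. The count over time without dox (36) became 230 with the replicate block, 335 with array weights, 0 with only the groups compared and 0 to 57 without single replicates. With dox (0) it became 2 with the replicate block. The cause of these moves was not tested. Background correction and slide could not be varied in deposited values. Dim groups limit the size of any difference that involves them.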
